A study of Homo sapiens with 30 samples.

Results

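The 9 genes described here encode N-cadherin and the proteins that work beside it at the cell surface: the cadherins CDH2, CDH1 and CDH11, the catenins CTNNA1, CTNNB1 and CTNND1, and the caveola proteins CAV1, CAV2 and CAVIN1. They were taken by gene symbol from the annotation of the array's probes, with the older name PTRF accepted for CAVIN1, and are 9 of 18665 genes with a named probe. The set was selected on measured values: it was chosen because CDH2 and CAV2 were lower with each of 2 hairpins against NFBD1 than with a control hairpin, so the comparisons of an NFBD1 hairpin with its control are given as values with no test. The 9 genes have 23 probes, and all 9 genes had a probe above background on enough arrays to be tested.

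RNA came from U2OS, a human osteosarcoma cell line, and was hybridised to 30 Illumina bead arrays of 1 colour, where the brightness of a probe measures its transcript. Retroviruses (pSIREN) delivered short hairpin RNAs (shRNAs), 2 days later the cells received 5 Gy from a caesium source or a mock treatment (0 Gy), and RNA was taken after another 4 h. The first experiment holds 8 groups of 3 arrays: a control shRNA, the NFBD1 shRNA b, a p53 shRNA, and NFBD1 b with p53 shRNA, each at 0 and 5 Gy. The second experiment holds 3 arrays of another NFBD1 hairpin, NFBD1a, and 3 of its own control, all at 0 Gy. NFBD1 is another name of MDC1, the mediator of DNA damage checkpoint signalling. All groups carry a virus, no uninfected cells were compared, and the labels do not say whether replicates are separate cultures, so p-values measure only the spread between these arrays, which may be technical.

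Between 34.1% and 40.3% of the probes were above background on an array. The transcript targeted by the NFBD1 hairpins, MDC1, had log2 intensities of 8.21 to 9.43 on the 12 arrays without hairpin b and 7.04 to 7.92 on the 12 arrays with it, with no overlap, and was 6.24 ± 0.08 with NFBD1a against 8.65 ± 0.12 in its control (SD, n = 3 each). With the p53 shRNA present, hairpin b gave MDC1 differences of -1.17 at 0 Gy (limma adjusted p = 0.0185) and -1.18 at 5 Gy (limma adjusted p = 0.0153), calls that were lost in 5 and 4 of 6 fits with 1 array left out (adjusted p of up to 0.131 and 0.105). The p53 transcript was not analysed here. The cells expressed mesenchymal genes: 10 of 13 markers were above background on all 24 arrays of the first experiment, among them VIM and SPARC. POSTN was above background on none. Of 10 osteoblast markers, 5 were above background on all 24 arrays (RUNX2, ALPL, BGLAP, SPP1 and COL1A1), and SP7, COL1A2 and DLX5 on none. Of 14 epithelial markers 6 were above background on all 24 arrays: EPCAM, KRT8, KRT18, OCLN, MUC1 and RAB25. KRT19, CLDN3, ESRP1, ESRP2 and ST14 were above background on none. Of 10 blood cell markers CD68 alone was above background on all 24, and PTPRC, CD3E and HBA1 on none. In a bulk sample, fewer cells expressing a gene and less RNA per cell cannot be told apart.

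Classical cadherins are transmembrane proteins that bind the same cadherin on the next cell. Their tails bind beta-catenin and p120-catenin, and alpha-catenin joins this complex to actin. Mesenchymal cells and osteoblasts use N-cadherin and cadherin 11, whereas epithelial cells use E-cadherin. Caveolae are small pits of the plasma membrane built from caveolins and coated by cavins. Caveolin 2 needs caveolin 1 to reach the cell surface, and the genes of both lie side by side.

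The promoters of 3 genes are shown as the RefSeq promoter table lists them (GRCh38.p14, 250 bases before to 50 after the first listed start). The levels of these genes were lower with both NFBD1 hairpins at 0 Gy, with no overlap between arrays. Of all genes, 5.61% were lower in this way with NFBD1 b and 20.2% with NFBD1a. The same comparisons chose CDH2 and CAV2, so nothing is read from the genes being low together. CDH2 lies on the minus strand at chr18:28177081-28177380, CAV2 on the plus strand at chr7:116499488-116499787 and CAV1 on the plus strand at chr7:116524759-116525058. The neighbours of CAV2 in the RefSeq gene table are TES and CAV1. Capitals mark GC boxes (GGGCGG, or CCGCCC on the other strand).
CDH2: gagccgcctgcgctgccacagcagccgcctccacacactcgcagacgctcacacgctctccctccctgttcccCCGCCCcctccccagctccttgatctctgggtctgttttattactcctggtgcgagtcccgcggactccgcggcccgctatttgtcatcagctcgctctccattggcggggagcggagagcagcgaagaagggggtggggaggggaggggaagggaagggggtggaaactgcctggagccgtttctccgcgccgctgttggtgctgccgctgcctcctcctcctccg
CAV2: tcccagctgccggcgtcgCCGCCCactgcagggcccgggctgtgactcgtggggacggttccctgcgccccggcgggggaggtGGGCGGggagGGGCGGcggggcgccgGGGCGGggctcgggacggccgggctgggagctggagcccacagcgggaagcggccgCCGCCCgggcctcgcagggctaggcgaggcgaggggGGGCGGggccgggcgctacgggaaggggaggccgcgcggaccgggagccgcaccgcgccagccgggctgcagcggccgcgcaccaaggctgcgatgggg
CAV1: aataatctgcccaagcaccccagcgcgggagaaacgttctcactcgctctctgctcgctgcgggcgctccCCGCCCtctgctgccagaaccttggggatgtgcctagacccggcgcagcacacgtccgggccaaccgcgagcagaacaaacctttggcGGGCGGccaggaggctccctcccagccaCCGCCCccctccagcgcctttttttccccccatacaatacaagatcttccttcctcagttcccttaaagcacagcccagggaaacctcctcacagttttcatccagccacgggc
The CDH2 window holds 1 GC box and is 67% G and C, the CAV2 window holds 6 and is 82.7% G and C, and the CAV1 window holds 3 and is 62.3% G and C. Of 35116 promoters in the table, 45% hold a GC box, and their median is 58.7% G and C. None of the 3 windows holds the E2 box CAGGTG (20.6% of all promoters do, either strand), TATAAA (11.5%) or the AP-1 motif TGACTCA (4.95%). These matches describe letters only, and 5 of the 9 genes were in the table.

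CDH2, N-cadherin, lay at 2 levels in the first experiment. The log2 intensity was 11.10, 11.14 and 11.11 in the control at 0 Gy and 11.13, 11.09 and 11.21 in the control at 5 Gy. With the p53 shRNA it was 11.17, 11.07 and 10.92 at 0 Gy and 11.20, 11.06 and 11.03 at 5 Gy. These 12 arrays without hairpin b lay within 10.92 to 11.21. With NFBD1 b it was 10.04, 10.17 and 10.14 at 0 Gy and 9.75, 10.03 and 9.81 at 5 Gy. With NFBD1 b and p53 shRNAs together it was 10.14, 10.28 and 10.14 at 0 Gy and 10.24, 10.29 and 10.18 at 5 Gy. The 12 arrays with hairpin b therefore lay within 9.75 to 10.29, all under the lowest array without it. In the second experiment, which was normalized on its own, CDH2 was 10.72, 10.60 and 10.61 in the control and 9.64, 9.62 and 9.74 with NFBD1a.

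In order of group means, CDH2 was lowest with NFBD1 b at 5 Gy (9.86 ± 0.15, SD, n = 3), followed by NFBD1 b at 0 Gy (10.12 ± 0.07), both shRNAs at 0 Gy (10.19 ± 0.08) and both at 5 Gy (10.24 ± 0.05). A step of 0.82 separated these 4 groups from the other 4, which lay between 11.05 and 11.14. NFBD1 b at 5 Gy did not overlap with the next group, but neighbours within each of the remaining sets overlapped.

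**Figure D1:**
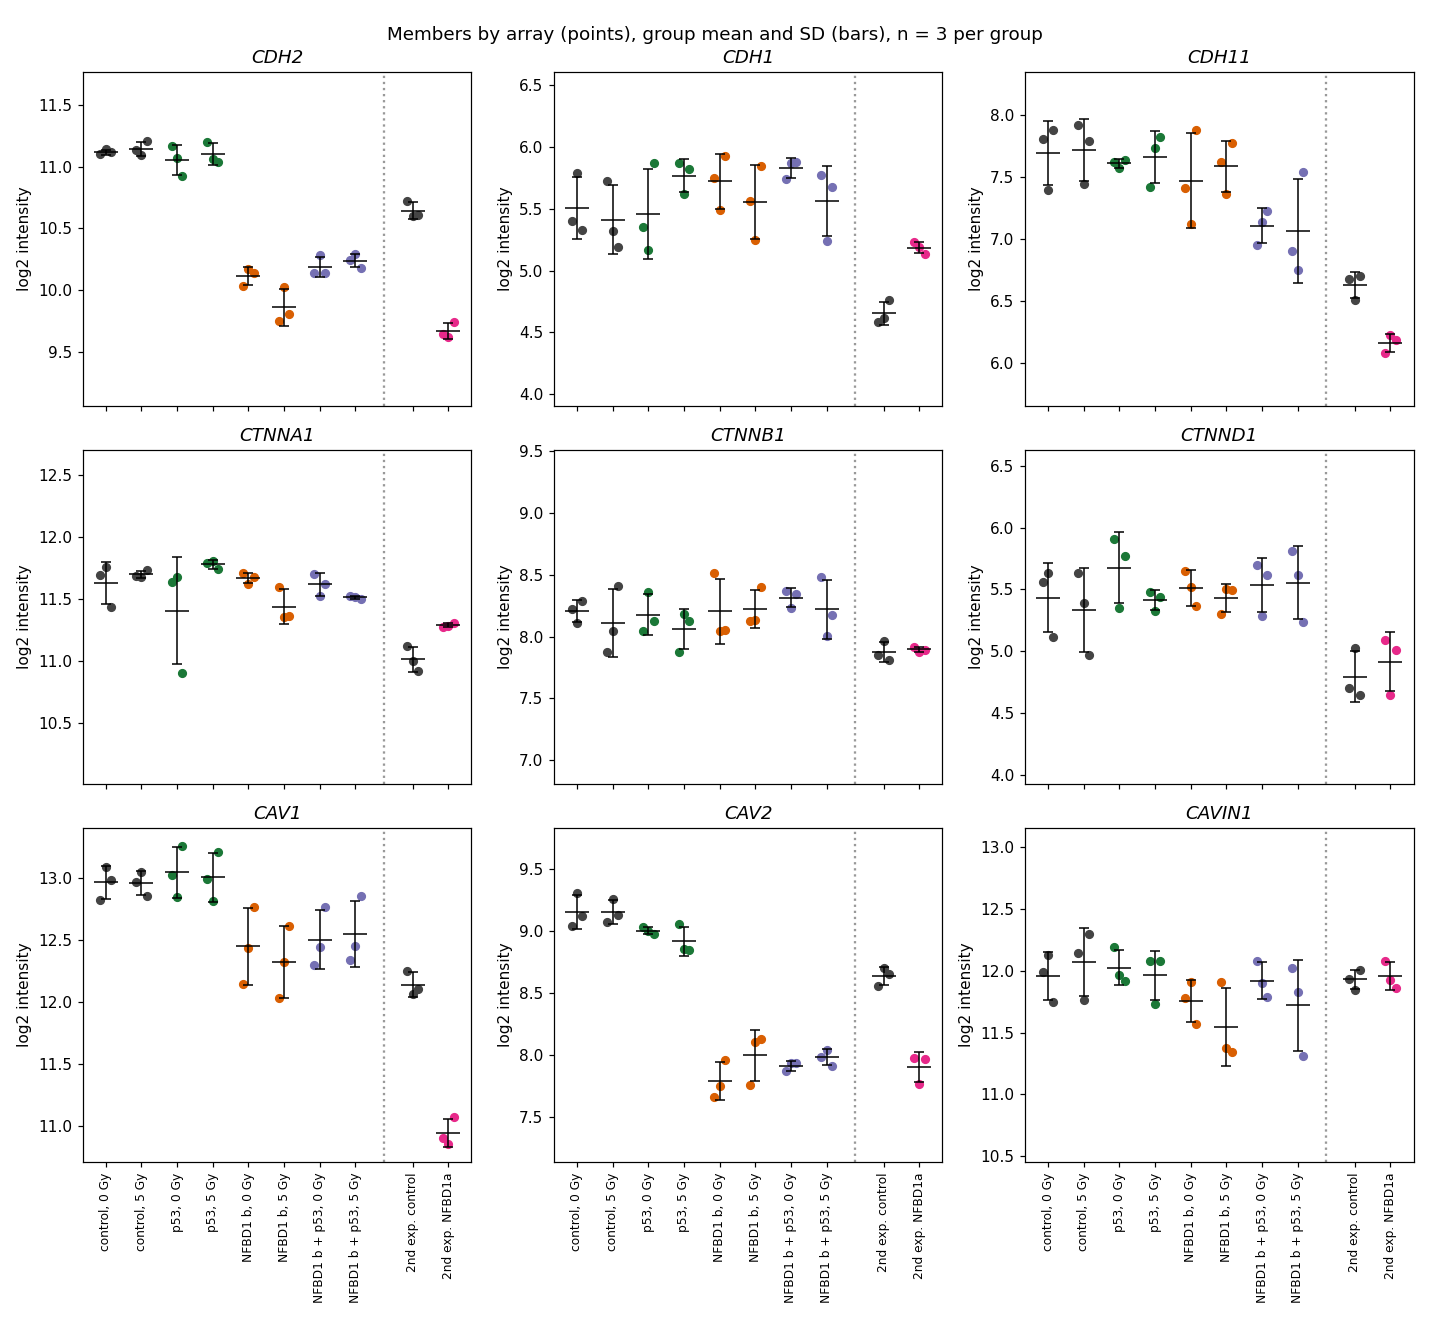
Log2 intensity (vertical axis) of the 9 genes on each array (points), with the mean and SD of each group of 3 arrays (bars). All panels span the same number of log2 units, and the dotted line separates the second experiment. CDH2 and CAV2 sit lower on every array with hairpin b than on any without it, and the catenins show no such split.

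Against a control hairpin, the CDH2 difference was -1.002 ± 0.10 (log2 change ± standard error) with NFBD1 b at 0 Gy and -1.28 ± 0.10 at 5 Gy, and -0.97 ± 0.07 with NFBD1a. These values come from the comparisons that chose the gene. On the 2 chips that hold both groups, the difference at 0 Gy was -1.06 and -0.97. A chip here is a run of 6 consecutive samples, since titles and column headers name none. Over all genes tested, CDH2 ranked as the 14th lowest change of 12419 with NFBD1 b at 0 Gy, the 7th lowest at 5 Gy and the 43rd lowest of 11040 with NFBD1a.

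The hairpin was also compared where every sample carried the p53 shRNA. These comparisons use other arrays than those above, though the genes were chosen with earlier results of the series known. They use the same hairpin b, and the choice of CDH2 and CAV2 named no p53 background. The p-values of these 2 genes and the counts beside them are therefore not independent of that choice, and nothing is read from the counts. CDH2 fell 1.82-fold at 0 Gy (-0.87 ± 0.10, limma adjusted p = 5.13e-05) and 1.82-fold at 5 Gy (-0.86 ± 0.10, limma adjusted p = 5.7e-05), with no overlap between arrays. CAV2 and CDH2 were the 2 of 9 genes called lower in each comparison, and none was called higher. Among all 12419 genes tested, 0.459% were called lower and 0.0483% higher at 0 Gy, and 0.652% lower and 0.0564% higher at 5 Gy. Arrays did not overlap for 4 of the 9 genes at 0 Gy (CDH2, CAV2, CAV1 and CDH11) and 3 at 5 Gy (CDH2, CAV2 and CTNNA1), all lower. Of all genes 5.42% were lower and 5.82% higher in this way at 0 Gy, and 8.32% lower and 6.06% higher at 5 Gy. Within the 2 chips that hold both groups, the CDH2 difference was -0.79 and -0.78 at 0 Gy and -0.77 and -0.85 at 5 Gy. When the fit held only the 6 arrays compared, the CDH2 call at 0 Gy was lost (limma adjusted p = 0.0619). The count of called genes was then 1 among the 9 and 14 over all genes.

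CDH11 encodes cadherin 11, or OB-cadherin, the cadherin of osteoblasts, and its replicates spread more than those of CDH2. In the control it was 7.81, 7.40 and 7.89 at 0 Gy and 7.93, 7.45 and 7.79 at 5 Gy. With the p53 shRNA it was 7.63, 7.57 and 7.64 at 0 Gy and 7.42, 7.74 and 7.83 at 5 Gy. With NFBD1 b and p53 shRNAs it was 6.96, 7.14 and 7.23 at 0 Gy and 6.90, 6.75 and 7.54 at 5 Gy. The 0 Gy arrays with both shRNAs lay under those with p53 shRNA alone, whereas 1 array at 5 Gy overlapped. The difference was -0.50 ± 0.20 at 0 Gy (limma adjusted p = 0.557) and -0.60 ± 0.20 at 5 Gy (limma adjusted p = 0.268), and neither passed the threshold. With the replicate number as a block, the 5 Gy difference passed (-0.60, limma adjusted p = 0.0475). Within chips it was -0.99 and -0.29 at 5 Gy. With NFBD1 b against the control it was -0.23 ± 0.20 at 0 Gy and -0.13 ± 0.20 at 5 Gy, with overlap. With NFBD1a it was -0.47 ± 0.08, from 6.68, 6.51 and 6.70 to 6.08, 6.22 and 6.19, with no overlap. Of all genes, 20.2% were lower and 21.8% higher without overlap with NFBD1a.

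CDH1, E-cadherin, was above background on all 24 arrays of the first experiment. Its group means lay between 5.41 and 5.83, and every neighbouring pair of groups overlapped. The arrays without hairpin b ranged from 5.16 to 5.87 (median 5.51) and those with it from 5.24 to 5.93 (median 5.74). The CDH1 difference with hairpin b in the p53 shRNA background was 0.37 ± 0.20 at 0 Gy (limma adjusted p = 0.802) and -0.21 ± 0.20 at 5 Gy (limma adjusted p = 0.859). In the second experiment CDH1 was above background on 1 of 3 control arrays (4.65 ± 0.09) and on 3 of 3 arrays with NFBD1a (5.19 ± 0.05). The CDH1 difference was 0.53 ± 0.07 with no overlap, where 21.8% of all genes were higher in this way. With the authors' own processed values this CDH1 difference was 0.16.

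The catenins, the cytoplasmic partners of the cadherins, were not called in any comparison tested. CTNNA1, alpha-catenin, had group means of 11.41 to 11.78 in the first experiment, and CTNNB1, beta-catenin, 8.06 to 8.31. CTNND1, p120-catenin, had group means of 5.33 to 5.68. With hairpin b in the p53 shRNA background, CTNNA1 differed by 0.21 ± 0.15 at 0 Gy (95% interval -0.10 to 0.52) and by -0.26 ± 0.15 at 5 Gy (-0.57 to 0.04). The arrays did not overlap at 5 Gy, but the other CTNNA1 probe gave -0.01 and 0.04. CTNNB1 differed by 0.14 ± 0.16 at 0 Gy (95% interval -0.19 to 0.46) and 0.16 ± 0.16 at 5 Gy (-0.16 to 0.49). A second CTNNB1 probe, above background on all 24 arrays, gave 0.15 and -0.15, so the direction at 5 Gy depended on the probe. CTNND1 differed by -0.14 ± 0.18 and 0.14 ± 0.18. Its other kept probe was above background on 10 of 24 arrays and is not used here.

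Against the control hairpin, the catenins differed by between -0.26 and 0.11 with NFBD1 b over both doses. The -0.26 was that of CTNNA1 at 5 Gy, whose arrays did not overlap, while its other probe gave -0.02. With NFBD1a, CTNNA1 was higher on all 3 arrays than on any control array (11.29 ± 0.02 against 11.01 ± 0.10, a difference of 0.28 ± 0.07), and its second probe gave 0.24. Of all genes, 21.8% were higher in this way. CTNNB1 differed by 0.02 ± 0.07 and CTNND1 by 0.12 ± 0.13, both with overlap. CTNNB1 was read from another probe in the second experiment than in the first, since its brightest probe differed, and CTNND1 was above background on 2 of 3 arrays in each group there.

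**Figure D2:**
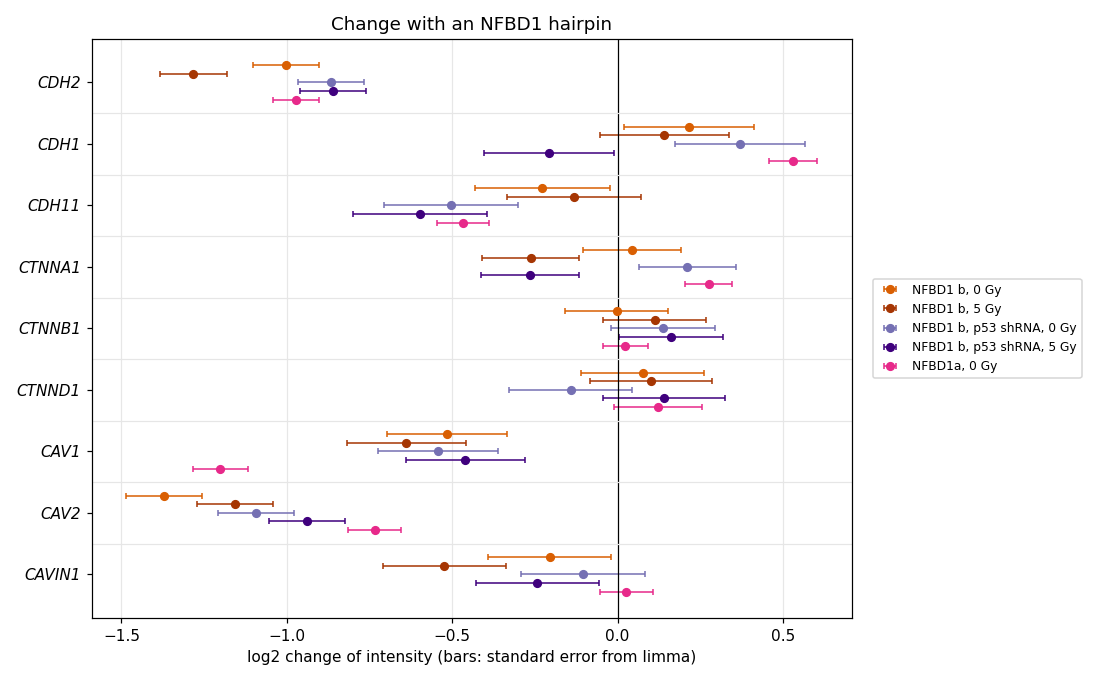
Log2 change of intensity (horizontal axis) of each gene with an NFBD1 hairpin, with the standard error as bars. The comparisons against a control hairpin (orange, brown and pink) chose CDH2 and CAV2. Those with the p53 shRNA (purple) use other arrays but the same hairpin b. CDH2 and CAV2 lie below -0.70 in all 5, CAV1 between -0.46 and -1.20, and the catenins between -0.26 and 0.28.

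CAV2, caveolin 2, also fell into 2 levels. In the control it was 9.04, 9.31 and 9.12 at 0 Gy and 9.07, 9.26 and 9.13 at 5 Gy. With the p53 shRNA it was 9.03, 9.001 and 8.98 at 0 Gy and 9.05, 8.85 and 8.85 at 5 Gy. No array without hairpin b was under 8.85. With NFBD1 b it was 7.66, 7.75 and 7.96 at 0 Gy and 7.76, 8.10 and 8.13 at 5 Gy. With both shRNAs it was 7.86, 7.93 and 7.93 at 0 Gy and 7.98, 8.04 and 7.91 at 5 Gy. No array with hairpin b was above 8.13. In the second experiment CAV2 was 8.55, 8.70 and 8.65 in the control and 7.97, 7.76 and 7.97 with NFBD1a.

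The 4 group means with hairpin b ran from 7.79 ± 0.15 (NFBD1 b, 0 Gy) to 7.995 ± 0.21 (NFBD1 b, 5 Gy), and neighbours overlapped. A step of 0.92 led to the p53 shRNA at 5 Gy (8.92 ± 0.12), then came the p53 shRNA at 0 Gy (9.004 ± 0.03) and the controls at 5 Gy (9.15 ± 0.10) and 0 Gy (9.16 ± 0.14). The p53 shRNA group at 0 Gy did not overlap with the next group, the control at 5 Gy, on this probe.

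Against a control hairpin, CAV2 differed by -1.37 ± 0.12 with NFBD1 b at 0 Gy, by -1.16 ± 0.12 at 5 Gy and by -0.73 ± 0.08 with NFBD1a, again as values from the comparisons that chose it. It ranked 3rd lowest and 12th lowest of 12419 genes with NFBD1 b at 0 and 5 Gy and 112th lowest of 11040 with NFBD1a. In the p53 shRNA background CAV2 fell 2.14-fold at 0 Gy (-1.09 ± 0.12, limma adjusted p = 3.1e-05) and 1.92-fold at 5 Gy (-0.94 ± 0.12, limma adjusted p = 0.000112). Within chips the CAV2 difference was -1.07 and -1.05 at 0 Gy and -0.81 and -0.94 at 5 Gy. A second CAV2 probe gave -1.65 and -1.53 with NFBD1 b at 0 and 5 Gy, -1.62 and -1.55 in the p53 shRNA background, and -0.65 with NFBD1a. The third CAV2 probe was above background on none of the 24 arrays of the first experiment.

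CAV1 encodes caveolin 1, the main structural protein of caveolae. In the control it was 12.82, 13.09 and 12.98 at 0 Gy and 12.97, 13.05 and 12.86 at 5 Gy. With the p53 shRNA it was 13.03, 12.85 and 13.27 at 0 Gy and 12.996, 12.82 and 13.21 at 5 Gy. Arrays without hairpin b had a median of 12.99. With NFBD1 b it was 12.15, 12.43 and 12.77 at 0 Gy and 12.03, 12.32 and 12.62 at 5 Gy. With both shRNAs it was 12.30, 12.45 and 12.77 at 0 Gy and 12.34, 12.45 and 12.86 at 5 Gy. The highest array with hairpin b, 12.86, passed the lowest without it, 12.82, so the 2 sets overlapped on this probe. On the second CAV1 probe, also above background on all 24 arrays, they did not: arrays with hairpin b lay within 10.26 to 10.69 and those without it within 10.74 to 11.25. In the second experiment CAV1 was 12.25, 12.06 and 12.10 in the control and 10.90, 10.85 and 11.07 with NFBD1a.

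The CAV1 difference from the control hairpin was -0.52 ± 0.18 with NFBD1 b at 0 Gy and -0.64 ± 0.18 at 5 Gy, and -1.20 ± 0.08 with NFBD1a, each with no overlap between arrays. In the same order, 5.61%, 7.29% and 20.2% of all genes were lower in this way. A second CAV1 probe gave -0.69, -0.62 and -1.25. With NFBD1a, CAV1 had the lowest change of the 9 genes and ranked 26th lowest of 11040 genes, whereas with NFBD1 b it lay behind CAV2 and CDH2. Whether the hairpins differed in CAV1 was not tested, since the experiments were normalized separately. In the p53 shRNA background the CAV1 difference was -0.54 ± 0.18 at 0 Gy (limma adjusted p = 0.33) and -0.46 ± 0.18 at 5 Gy (limma adjusted p = 0.402), and neither was called. With the chip as a block both passed, at -0.58 (limma adjusted p = 0.0087) and -0.49 (limma adjusted p = 0.0236). Within the 2 chips that hold both groups the values were -0.41 and -0.50 at 0 Gy and -0.37 and -0.36 at 5 Gy.

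CAVIN1, cavin 1, the coat protein that caveolae need to form, had group means of 11.54 to 12.07 in the first experiment. Its difference was -0.20 ± 0.19 with NFBD1 b at 0 Gy and -0.52 ± 0.19 at 5 Gy, where the arrays overlapped, and 0.03 ± 0.08 with NFBD1a (11.96 ± 0.11 against 11.93 ± 0.08). In the p53 shRNA background CAVIN1 differed by -0.10 ± 0.19 at 0 Gy (95% interval -0.49 to 0.28) and -0.24 ± 0.19 at 5 Gy (-0.63 to 0.14).

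Counted over the 9 genes, 3 were lower on every NFBD1 b array than on every control array at 0 Gy and none was higher, where 5.61% of all genes were lower and 6.26% higher in this way. At 5 Gy 4 were lower and none higher (7.29% and 5.25% of all genes). With NFBD1a 4 were lower and 2 higher (20.2% and 21.8% of all genes). The median change of the 9 genes was -0.21, -0.26 and 0.02 in these comparisons, where the median of all genes was 0.01, -0.01 and 0.01. Nothing is read from these counts, since the same comparisons chose CDH2 and CAV2.

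**Figure D3:**
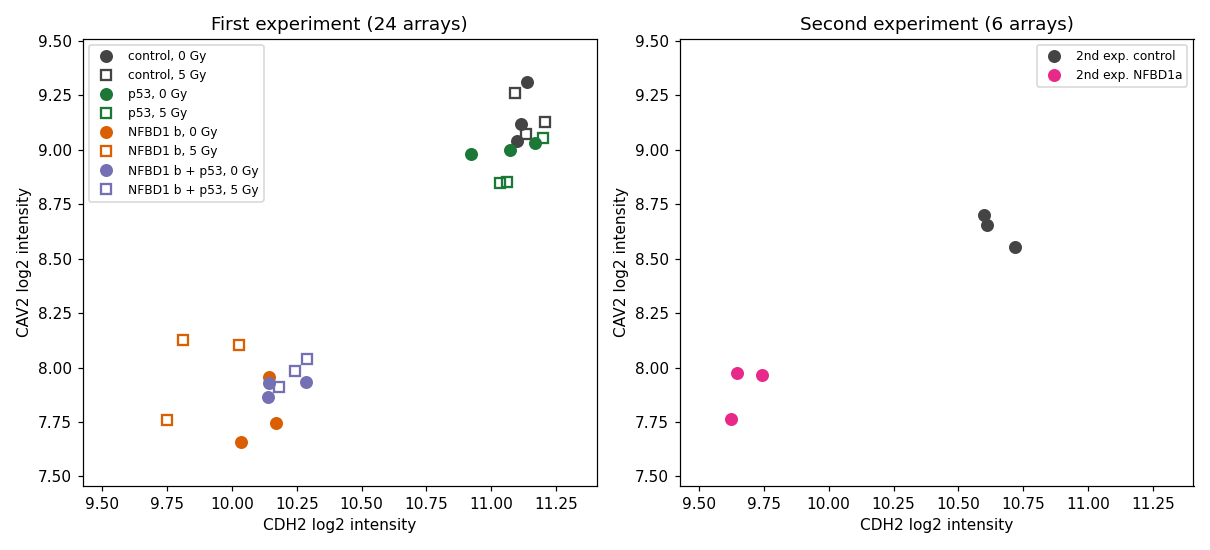
CAV2 log2 intensity (vertical axis) against CDH2 log2 intensity (horizontal axis), 1 point per array, filled at 0 Gy and open at 5 Gy, coloured by shRNA. The 12 arrays with hairpin b form a cluster at low values of both genes, apart from the 12 without it, and the second experiment splits the same way by hairpin NFBD1a.

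The arrays formed 2 clusters by hairpin b, so CDH2 and CAV2 were set side by side within each. Pearson's r between them was 0.44 over the 12 arrays without the hairpin and 0.08 over the 12 with it, as a description of arrays that share chips and treatments. The likeness of CDH2 to other genes over all 24 arrays was highest for AMMECR1 (r = 0.978), PRRC1 (0.971), HIRIP3 (0.96), LAMP2 (0.959) and LSM14A (0.958), of 10909 genes measured in both experiments. CAV2 was most like HIRIP3 (0.962), CDH2 (0.953), SLC66A3 (0.952), MYADM (0.951) and LAMP2 (0.944). LAMP2 is a lysosomal membrane protein, MYADM the myeloid-associated differentiation marker, a membrane protein, and LSM14A a protein of RNA granules. These values come from the same arrays that showed the 2 levels and mark genes that are low with hairpin b. In the second experiment, which the likeness did not use, NFBD1a gave differences of -0.51 for HIRIP3, -0.44 for AMMECR1, -0.23 for LSM14A, -0.06 for PRRC1, 0.02 for LAMP2, 0.17 for MYADM and 0.46 for SLC66A3. CDH2 was at -0.97 and CAV2 at -0.73, values that chose them and are not set against these genes.

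Irradiation with 5 Gy changed none of the 9 genes under any of the 4 shRNA treatments by limma at an adjusted p under 0.05. Over all genes, 0.588% were called with the control shRNA, 0.757% with NFBD1 b, 0.25% with the p53 shRNA and 0.201% with both. The arrays of the control shRNA and of NFBD1 b are also those that chose CDH2 and CAV2. At an unadjusted p under 0.05, 0 members passed with the control, 1 with NFBD1 b, 1 with the p53 shRNA and 0 with both. How many of all genes passed this unadjusted threshold was not counted, so nothing is read from these members. With the control shRNA the changes of the 9 genes ran from -0.10 to 0.11, with CDH2 at 0.03 ± 0.10 (95% interval -0.18 to 0.23) and CAV2 at 0.00 ± 0.12 (-0.24 to 0.23). With NFBD1 b, CDH2 was lower at 5 Gy on all 3 chips (-0.29, -0.14 and -0.33) and on every array (-0.25 ± 0.10, limma adjusted p = 0.334). With the p53 shRNA, CTNNA1 was higher on every 5 Gy array (0.37 ± 0.15, limma adjusted p = 1). In this p53 shRNA group at 0 Gy, the CTNNA1 arrays were 11.64, 11.68 and 10.91, while the other CTNNA1 probe gave 10.93, 10.67 and 11.34 on the same arrays and a change of 0.05 with irradiation. Arrays did not overlap for 2 genes with NFBD1 b (CDH2 and CTNNA1, lower) and for CTNNA1 with the p53 shRNA. Of all genes, 4.97% were lower and 3.61% higher without overlap with the control shRNA, 8.98% and 5.33% with NFBD1 b, 3.44% and 4.85% with the p53 shRNA, and 4.31% and 3.45% with both.

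The p53 shRNA also changed none of the 9 genes in the 4 comparisons made, by limma at an adjusted p under 0.05. Over all genes, 0.33% were called at 0 Gy and 0.701% at 5 Gy with no NFBD1 hairpin, and 0.153% and 0.395% with NFBD1 b. At an unadjusted p under 0.05, 0, 0, 0 and 2 of the 9 genes passed. The share of all genes at that unadjusted threshold was not counted here either, and nothing is read from this count. All 4 share arrays with the comparisons that chose CDH2 and CAV2: the control arrays without an NFBD1 hairpin, and the low NFBD1 b arrays with it. CAV2 was lower on every array with the p53 shRNA than on every control array, by -0.15 ± 0.12 at 0 Gy (limma adjusted p = 0.999) and -0.24 ± 0.12 at 5 Gy (limma adjusted p = 0.639). That was on its brightest probe. The second CAV2 probe, above background on all 24 arrays, gave -0.12 at 0 Gy and 0.04 at 5 Gy, with overlap between arrays at each dose. In the presence of hairpin b the p53 shRNA gave CAV2 differences of 0.12 and -0.02 on the brightest probe. At 5 Gy with NFBD1 b, CDH2 was higher on every array that also carried the p53 shRNA, at 10.24 ± 0.05 against 9.86 ± 0.15, a difference of 0.38 ± 0.10 (limma adjusted p = 0.159). With the authors' own processed values CDH2 passed there (0.34, limma adjusted p = 0.022), so that the count of called genes among the 9 became 1. Over all genes, those values called 60 in this comparison, against 49 with the processing of the report, and nothing is read from the count. Lower and higher without overlap were 4.86% and 3.51% of all genes at 0 Gy and 6.27% and 8.25% at 5 Gy with no NFBD1 hairpin, and 6% and 4.15% at 0 Gy and 4% and 5.49% at 5 Gy with NFBD1 b. Of the 9 genes these were CAV2 at each dose (lower, on its brightest probe only) and CTNNA1 at 5 Gy (higher, by 0.08). The other CTNNA1 probe gave 0.03 there, with overlap. CDH2 at 5 Gy with NFBD1 b was also among them (higher). CDH11 in the last comparison differed by -0.52 ± 0.20 (limma adjusted p = 0.464), with overlap.

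**Figure D4:**
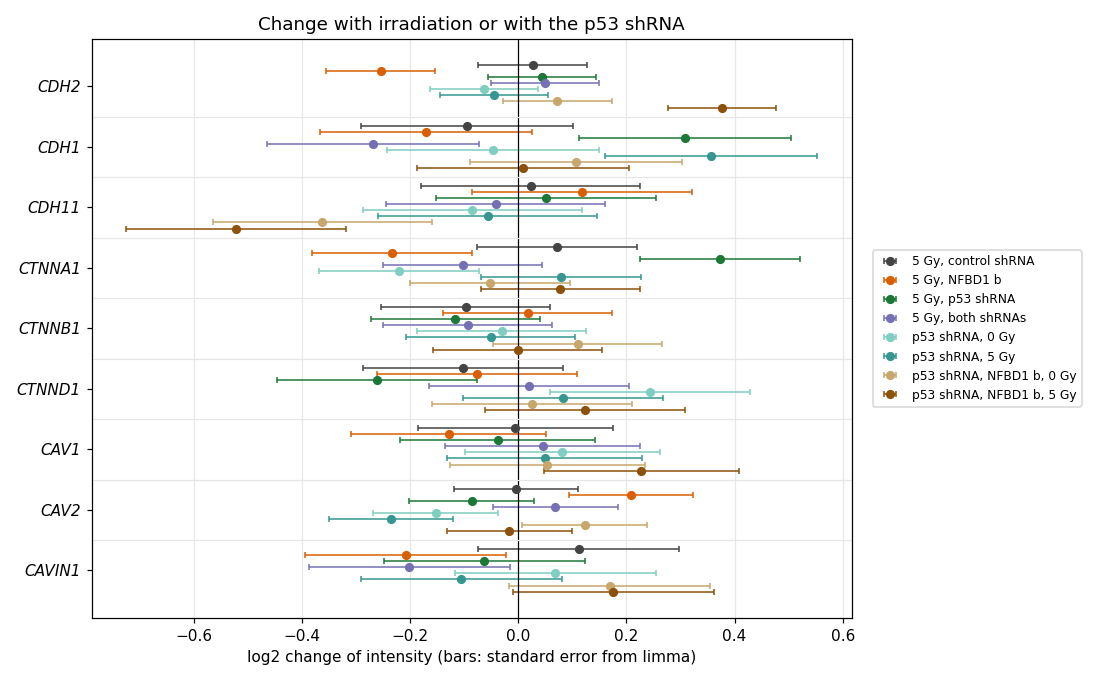
Log2 change of intensity (horizontal axis, bars are standard errors) of the 9 genes with 5 Gy under each shRNA treatment and with the p53 shRNA under each background. No point passed an adjusted p of 0.05, and CDH11 at -0.52 and CDH2 at 0.38 with the p53 shRNA at 5 Gy on top of NFBD1 b lie farthest from 0.

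Genes that work with these 9 were counted from lists. With hairpin b in the p53 shRNA background, none of 9 other classical cadherins tested, 16 partners of adherens junctions, 13 other proteins of caveolae and rafts, 7 transcription factors of epithelial-mesenchymal transition, 12 mesenchymal markers, 12 beta-catenin target genes, 9 epithelial, 6 osteoblast or 6 blood cell markers was called at either dose by limma, of genes called at 0.507% and 0.709% overall. The median change of the other cadherins was 0.02 at 0 Gy and -0.04 at 5 Gy, that of the junction partners -0.05 and -0.16, and that of the caveola list -0.06 and -0.01. It was -0.19 and -0.14 for the transcription factors, -0.01 and -0.12 for the mesenchymal markers, -0.14 and -0.07 for the beta-catenin targets, -0.21 and -0.04 for the osteoblast, -0.05 and -0.02 for the epithelial and 0.04 and 0.07 for the blood cell markers. The median of all genes was 0.01 and -0.01. FLOT2, flotillin 2 of membrane rafts, differed by 0.05 ± 0.13 and -0.24 ± 0.13, and PACSIN2, which bends caveolar membrane, by 0.17 ± 0.13 and -0.14 ± 0.13. CDH18 differed by 0.20 ± 0.14 and 0.14 ± 0.14, and CDH15, M-cadherin, by -0.30 ± 0.17 and -0.18 ± 0.17. SNAI2, the repressor Slug, differed by -0.10 ± 0.29 and -0.20 ± 0.29 and TCF4 by -0.30 ± 0.16 and -0.14 ± 0.16. The beta-catenin targets CCND1 and MYC differed by -0.18 ± 0.18 and 0.11 ± 0.16 at 0 Gy and by -0.33 ± 0.18 and 0.14 ± 0.16 at 5 Gy.

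Under the p53 shRNA, 2 genes of these lists were called lower. ADAM10, the protease that sheds the outer part of N-cadherin, fell from 8.06 ± 0.04 to 7.26 ± 0.23 at 0 Gy (-0.80 ± 0.14, limma adjusted p = 0.0124) and from 8.16 ± 0.19 to 7.34 ± 0.17 at 5 Gy (-0.82 ± 0.14, limma adjusted p = 0.00498). With NFBD1 b present the p53 shRNA gave ADAM10 differences of -0.53 ± 0.14 (limma adjusted p = 0.269) and -0.45 ± 0.14 (limma adjusted p = 0.331), and whether the backgrounds differ was not tested. Leaving out 1 array at a time, the ADAM10 call at 0 Gy was lost in 4 of 6 cases, with an adjusted p of up to 0.0866, and both ADAM10 calls were lost in fits of the 6 arrays compared (adjusted p = 0.264 and 0.0729). The authors' own processed values gave -0.47 and -0.50 for ADAM10 and kept both calls. ACTA2, smooth muscle actin, a mesenchymal marker, fell in all 4 comparisons of the p53 shRNA. The ACTA2 change was -1.01 ± 0.21 at 0 Gy (limma adjusted p = 0.0301), -1.393 ± 0.21 at 5 Gy (0.000774), -1.07 ± 0.21 with NFBD1 b at 0 Gy (0.0265) and -1.04 ± 0.21 with NFBD1 b at 5 Gy (0.0181). The ACTA2 calls at 0 Gy were lost with the authors' own processed values (-0.57, adjusted p = 0.0787, and -0.62, adjusted p = 0.0502). With 1 array left out, ACTA2 lost its call in 5 of 6 fits at 0 Gy, 5 of 6 with NFBD1 b at 0 Gy and 3 of 6 with NFBD1 b at 5 Gy (adjusted p of up to 0.227, 0.258 and 0.131), and in none at 5 Gy without it. CSF1R, a receptor of macrophages in the blood cell list, was called higher with the p53 shRNA on top of NFBD1 b at 5 Gy (0.81 ± 0.18, limma adjusted p = 0.045), a call lost in 5 of 6 fits with 1 array left out (adjusted p of up to 0.278) and without background correction, where the CSF1R change was 0.47 (adjusted p = 0.0664). Every other member of the lists had an adjusted p over the threshold in the irradiation and p53 shRNA comparisons.

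**Figure D5:**
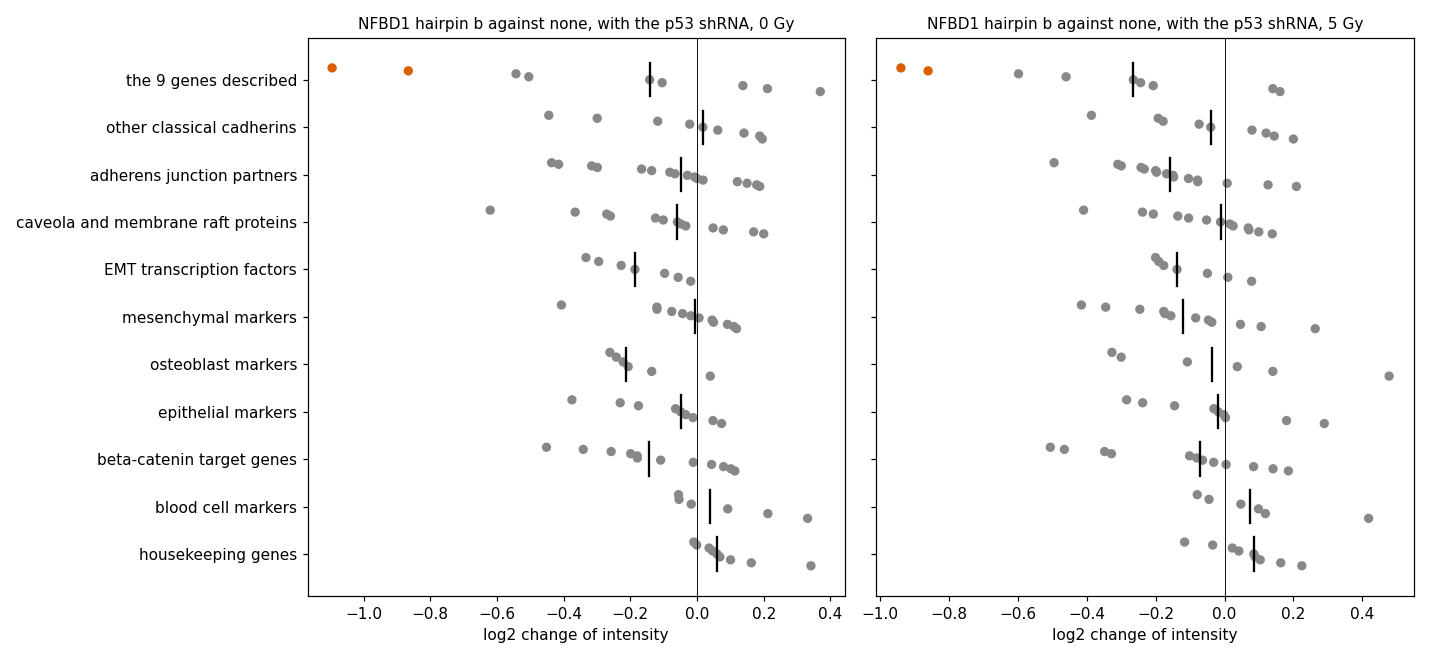
Log2 change of intensity (horizontal axis) with hairpin b in the p53 shRNA background for the 9 genes and the lists (rows), 1 point per gene, with the list median as a black bar. Orange points passed an adjusted p of 0.05, and these are CAV2 and CDH2 at each dose.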

How the data were processed

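The authors deposited, per the file headers, the mean bead intensity of 48802 probes on each of 30 arrays, neither background-corrected nor normalized, and beside each intensity its detection p-value, also as deposited. The authors also deposited a processed table that holds log2 values, whose method is not given in the sources used here. It follows the order of the intensities on each array exactly and has 1 common distribution. Bead errors and bead numbers (60 columns) were not used. The shRNA targets, the replicate numbers and the doses of the first experiment come from the sample titles, per the labels. Titles of the second experiment give no dose, which stands in the column headers of its intensities. The titles name the hairpin NFBD1a, but none carries the letter b used here for the other NFBD1 hairpin.

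Within each experiment the intensities went through background correction, quantile normalization and log2 (neqc of limma 3.58.1, R 4.3.3, offset 16, negative controls inferred from the detection p-values). A probe was kept where 3 or more arrays of the experiment had a detection p-value below 0.01 (21568 and 17975 probes) and named through GEO's platform annotation (27577 probes with 1 symbol, 13 with several, 21212 with none) and updated through RefSeq (27540 matched). Each gene was read from its brightest kept probe, giving 12419 and 11040 genes. The model had 1 mean per group (limma, lmFit then eBayes) on the 24 arrays, with 16 residual degrees of freedom, or on the 6, with 4. A gene was called at a Benjamini-Hochberg adjusted p under 0.05 over all genes of a comparison. On simulated data for hairpin b with p53 shRNA at 0 Gy (12419 genes, 200 changed by 1 on the log2 scale), 84% were recovered and 4.55% of calls were false. The simulated noise was independent between arrays, so these rates do not cover the correlation between arrays described next. Only 3 arrays a group limit the precision, and the highest correlation between 2 arrays was 0.996.

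Samples sharing a replicate number deviated together in every pair (r of 0.103 to 0.592) when hairpin b was compared in the p53 shRNA background. The pairs of replicates 2 and 3 also shared a chip, so chip and replicate number cannot be told apart in them. Replicate 1, on different chips, had r of 0.375 at 0 Gy and 0.354 at 5 Gy. The fit with the replicate number as a block is given for these comparisons where it changes a call. It called 138 and 221 genes at 0 and 5 Gy, against 63 and 88 without it. Alternatives were the authors' values, no background correction, offset 50, 2 other detection filters, the mean of probes, chip or replicate blocks, 6-array fits and leaving out each array.

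The members and lists were chosen with earlier results of these data known. Named in the text are the 9 genes and MDC1, up to 4 called genes of each list and comparison or otherwise its 2 brightest, and the 5 genes most like CDH2 and CAV2.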

Additional observations from a re-analysis of the deposited data

Results flagged for a closer look

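At 5 Gy against 0 Gy, some of the 9 genes had differences of opposite sign under different shRNA treatments on all 3 chips of each treatment. This held for 5 of 54 combinations of a gene and a pair of treatments. CTNNA1 and CAV1 recur among the 5, and the share of all genes with this pattern was not counted. Nothing is therefore read from the count. The interaction term, fitted by limma over all 24 arrays after the pattern was seen, passed for none of the 5 at an adjusted p under 0.05. The same held with each pair of 0 and 5 Gy arrays as a block, where the adjusted p lay between 0.207 and 0.942, and with the replicate number as a block, where it lay between 0.214 and 0.988. CTNNA1 was lower at 5 Gy with NFBD1 b and higher with the p53 shRNA, a difference of -0.606 ± 0.21 (limma adjusted p = 0.502). It was also higher with the p53 shRNA and lower with both shRNAs, a difference of 0.476 ± 0.21 (limma adjusted p = 1). The other CTNNA1 probe differed by -0.11 with NFBD1 b, 0.05 with the p53 shRNA and 0.10 with both, so its sign differed from the first probe's with both. CDH2 was lower at 5 Gy with NFBD1 b and higher with both shRNAs, a difference of -0.304 ± 0.14 (limma adjusted p = 1). CAV1 was lower with NFBD1 b and higher with both shRNAs by -0.173 ± 0.26, and lower with the p53 shRNA and higher with both by -0.083 ± 0.26 (limma adjusted p = 1 for each). The second CAV1 probe had no such opposite signs, with irradiation differences of 0.05 with NFBD1 b, 0.08 with the p53 shRNA and 0.16 with both.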

How the results depend on the processing

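The falls of CDH2 and CAV2 with hairpin b in the p53 shRNA background kept their direction under every alternative run. CAV2 stayed called in all of them and CDH2 in all but the fit of the 6 arrays compared at 0 Gy (adjusted p = 0.0619), where 1 of the 9 genes was called. Leaving out each array, 2 of the 9 genes stayed called in both comparisons of hairpin b in the p53 shRNA background and 0 in the irradiation and p53 shRNA comparisons. CDH2 and CAV2 were chosen because they were lower with the same hairpin b, so their calls are not independent of that choice. Nothing is read from these counts. The authors' processed values called 1 of the 9 genes, CDH2, with the p53 shRNA on top of NFBD1 b at 5 Gy, and 60 over all genes. With the processing of the report, the mean of CDH2 and CAV2 against the control hairpin was -1.19 with NFBD1 b at 0 Gy, -1.22 at 5 Gy and -0.85 with NFBD1a, and lay between -1.24 and -1.13, between -1.29 and -1.13, and between -0.89 and -0.81 when single arrays were left out. With the authors' processed values it was -0.98, -1.04 and -0.75. With the mean of all kept probes, ACTB in the NFBD1a comparison was -0.0381 in place of 0.06.

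With the replicate number as a block, CDH11 was called at 5 Gy in the p53 shRNA background (-0.60, adjusted p = 0.0475), and CAV1 at 0 Gy came to an adjusted p of 0.0501. No other call of the 9 genes changed under the replicate block. Pairing by replicate number was less clear where some pair's correlation was under 0.1, a cut that was a choice. In the irradiation of control cells the pairs had r of 0.0915, 0.186 and 0.329. With the p53 shRNA and no NFBD1 b, r was 0.0667, -0.141 and 0.336 at 0 Gy and 0.318, 0.089 and 0.215 at 5 Gy. In the NFBD1a comparison r was -0.0559, 0.034 and -0.0428. Over all genes, blocks raised the counts of calls and 6-array fits lowered them: irradiation of NFBD1 b cells gave 94 calls, 224 with chips and 216 with replicate numbers as blocks, and 17 in 6 arrays, and hairpin b in the p53 shRNA background gave 63 and 88 calls, 131 and 193 with chips as blocks, and 14 and 17 in 6 arrays.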
